A study of Homo sapiens with 8 samples.

Results

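A total of 7055 transcribed regions on the 22 autosomes carried no gene name on the array and were nevertheless bright in B-cell lymphoma lines. Each is a transcript cluster, the array's unit for one transcribed region, whose identifier starts with TC and whose annotation lists no gene symbol. The clusters were chosen by their measured level: a mean log2 signal of 8 or more in at least 1 of the 4 groups (line by ligand). The 7055 clusters were 7.49% of the 94223 unnamed autosomal clusters and 5.20% of the 135750 clusters and unmapped probe sets on the array, controls left out. A further 348 unnamed clusters reached the level off the autosomes and are not described. Because these same group means selected the clusters, their levels and the differences between the groups are given as descriptions. Counts of calls from a fit over all rows are printed with the share of all rows beside them and are not tests of these clusters.

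Total RNA came from the human B-lymphoma lines HBL-1 and BJAB, on 8 single-colour arrays. Each line was exposed for 6 h to 1 µg/ml of recombinant purified APRIL or, as the control, to 1 µg/ml of EDA, with 2 arrays in each of the 4 groups. APRIL is a ligand of the TNF family that binds BCMA and TACI on B-lineage cells, and EDA is a TNF-family ligand of ectodermal receptors. Both lines are single established lines, HBL-1 representing diffuse large B-cell lymphoma of activated B-cell type and BJAB a line from a Burkitt-type lymphoma without Epstein-Barr virus. The cells grew in RPMI1640 medium with 10% FCS, and no group without a ligand is used here. Separate cultures are not stated for the 2 arrays of a group, so p-values measure only the spread between these arrays, which may be technical.

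Much of the RNA that a cell makes comes from outside annotated genes: long noncoding RNAs, antisense RNAs, transcripts that run on past the end of a gene, introns, and copies of repeats and pseudogenes. Since every copy of a chromosome can be transcribed, gains and losses of DNA tend to shift the RNA of many neighbours together, while the regulation of a single gene moves a short stretch. Large B-cell lymphomas often gain the regions of FOXP1 and BCL6 on chromosome 3 and of BCL2 and MALT1 on chromosome 18. Only RNA was measured on these arrays, so the comparison by chromosome is a comparison of RNA levels.

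The B-cell label fitted the marker genes. All 6 B-cell markers with a cluster of their own (CD79A, CD79B, MS4A1, PAX5, CD74 and BLNK) lay at 10.08 or more in HBL-1 and 11.08 or more in BJAB. None of 4 myeloid and none of 5 T and NK markers reached 8 in either line. Of 5 epithelial and fibroblast markers, the collagen gene COL1A2 reached 8 in both lines (9.89 and 8.16) and the matrix gene DCN in BJAB (6.02 in HBL-1 and 12.60 in BJAB).

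The order of the identifiers carried the position of the unnamed clusters. Within a chromosome the numbers run along the forward strand, then back to the start and along the reverse strand. Spearman's rho between number and position was taken over clusters with a gene name and a known place in the reference gene table. It exceeded 0.99 in 43 of the 44 first and second runs, and was 0.86 in the other. Shorter runs follow these, and rho was 0.98 or more in them. Of the named clusters with a known strand on 21 autosomes, 99.9% of the first run were on the forward strand and 99.9% of the second on the reverse strand. Of the unnamed clusters, 3461 fell in a first run, 3313 in a second run and 181 in later, shorter runs. The names of the genes on either side are used below as signposts, and the distance in bases to them is not known here. No nucleotide sequence of the unnamed clusters is printed, as none was at hand.

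The unnamed clusters ranged from just over the level to near the highest signals on the arrays. The highest group mean was between 8 and 9 in 2671 clusters and 14 or more in 830, with a median of 9.53 and a maximum of 18.89. Of the 10062 autosomal clusters with 1 gene symbol that met the same level rule, 1543 were at 14 or more. Of the unnamed clusters, 4719 were over the level in all 4 groups. Another 1053 were over it in 1 or both HBL-1 groups and in no BJAB group. For 635 it was 1 or both BJAB groups and no HBL-1 group. At the edge of the rule, TC1500007043.hg.1, TC1200009482.hg.1 and TC0700012822.hg.1 lay just inside, with HBL-1 means of 7.87, 7.65 and 7.89 over both ligands and BJAB means of 7.71, 7.39 and 7.31. Just outside were TC0600013629.hg.1, TC0900008001.hg.1 and TC1100008519.hg.1, with HBL-1 means of 7.38, 7.91 and 7.92 and BJAB means of 7.77, 7.56 and 7.62. The clusters on either side of the threshold were thus alike in level. Some clusters repeat each other: 127 had values identical to those of another unnamed cluster on all 8 arrays, and the 7055 clusters hold 6977 distinct patterns.

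The brightest unnamed clusters were almost equal in the lines. TC1300009757.hg.1, between the antisense gene MYO16-AS1 and the insulin receptor substrate IRS2 on chromosome 13, had log2 signals of 18.85 and 18.94 in HBL-1 with EDA, 18.82 and 18.70 with APRIL, 18.83 and 18.81 in BJAB with EDA, and 18.85 and 18.73 with APRIL. The arrays of the lines overlapped, and the difference HBL-1 minus BJAB was 0.02. In the next 4 by level, TC0500009339.hg.1 (between MAT2B and TENM2), TC0100008103.hg.1 (between KIF2C and PLK3), TC0200009857.hg.1 (between GCA and SCN2A) and TC2100008361.hg.1 (between CFAP410 and TRPM2-AS), the difference was 0.25, 0.01, 0.07 and 0.12. TC0200009857.hg.1 stayed at 18.24 to 18.37 on the 8 arrays while the nearest named cluster after it, the sodium channel gene SCN2A, was higher in HBL-1 by 5.19 on the log2 scale.

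Clusters with a gene name are set beside them for comparison. Of the 830 unnamed clusters at 14 or more, 5.78% were 2-fold or more apart between the lines, and their quartiles were -0.02 and 0.16. Of the 1543 clusters with a gene symbol in the same band, 25.5% were 2-fold or more apart, with quartiles of -0.56 and 0.38. In the band from 8 to 9 the shares were 19.96% and 30.3%. The correlation between an HBL-1 array and a BJAB array, across clusters and for the 16 pairs of arrays, was 0.907 to 0.918 for the unnamed clusters and 0.796 to 0.803 for the named ones. Replicate arrays correlated at 0.98 to 0.99 in both kinds. Clusters are not independent replicates, and no test of these shares was made.

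**Figure D1:**
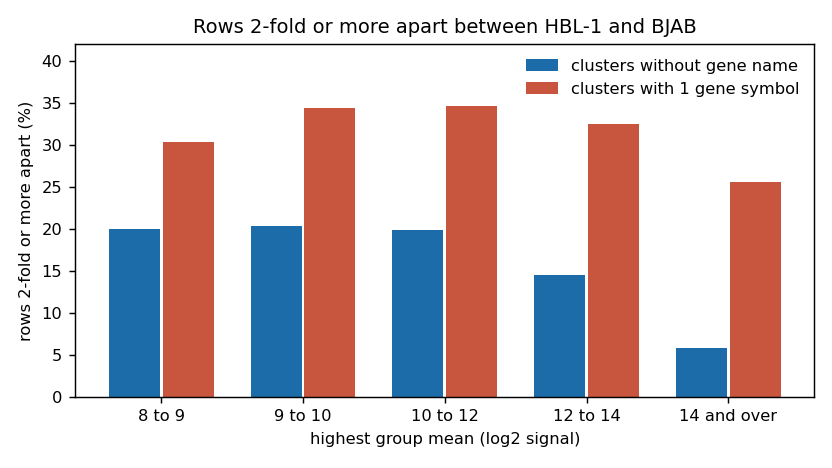
Share of clusters 2-fold or more apart between HBL-1 and BJAB (vertical axis, percent), by the highest of the 4 group means on the log2 scale (horizontal axis), for clusters without gene name and clusters with 1 gene symbol under the same level rule. In the brightest band the share was 5.78% without and 25.5% with a gene name.

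Over all levels, the difference HBL-1 minus BJAB averaged over both ligands had a median of 0.11 over the unnamed clusters, with quartiles of -0.15 and 0.40, and ran from -9.99 to 7.24. Over all 135750 rows fitted the median was 0.06, and over the named clusters at the same level it was -0.12, with quartiles of -0.73 and 0.45. In a limma fit over all rows, 8.73% of rows passed an adjusted p of 0.05 for the line contrast, and of the unnamed clusters 1611 (22.8%) did, 887 higher and 724 lower in HBL-1. Over all rows 4.31% passed as higher and 4.42% as lower. Of the named clusters at the same level 45.3% passed. The 4 arrays of one line did not overlap the 4 of the other in 2264 unnamed clusters (32.1%), against 14.1% of all rows. The level rule keeps a cluster that is bright in 1 line alone, so nothing is read from the excess over all rows. Among the unnamed clusters 682 were 2-fold or more higher and 577 2-fold or more lower in HBL-1 (9.67% and 8.18%, against 2.99% and 3.07% of all rows).

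The clusters with the largest differences were bright in one line and dim in the other. Highest in HBL-1 was TC1800008899.hg.1 on chromosome 18, on the reverse strand between BCL2, which encodes the inhibitor of apoptosis, and KDSR, an enzyme of sphingolipid synthesis. It measured 11.89 and 11.73 in HBL-1 with EDA, 12.30 and 11.18 with APRIL, 4.15 and 3.67 in BJAB with EDA, and 6.45 and 3.88 with APRIL. All HBL-1 arrays were above all BJAB arrays, and 1 APRIL array of BJAB stood above the other BJAB arrays. The means were 11.77 ± 0.47 (SD, n = 4 arrays) and 4.54 ± 1.29 (n = 4), a log2 difference of 7.24. TC1800008898.hg.1 and TC1800008901.hg.1 in the same gap differed by 6.52 and 6.16.

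Other clusters of this size stood beside genes that differed far less but were dim in both lines. TC1700006666.hg.1, on chromosome 17 between the zinc finger gene ZFP3 and the ubiquitin protease USP6, had means of 11.85 ± 0.14 in HBL-1 and 4.70 ± 0.55 in BJAB (SD, n = 4 each), while ZFP3 and USP6 differed by 0.28 and -0.02. TC1000009930.hg.1, between the sialyltransferase ST8SIA6 and STAM-DT on chromosome 10, differed by 6.85 against 0.43 and 0.47 for these neighbours. TC1200009831.hg.1, between the C-type lectin CLEC4E and MFAP5 on chromosome 12, differed by 6.22 against 0.22 and -0.32. These neighbours lay at 3.75 to 6.91 in HBL-1 and 4.01 to 6.70 in BJAB, all under the level of 8. A small difference between the lines says little at such levels. On chromosome 22, TC2200006465.hg.1 near POTEH and TC2200006696.hg.1 near HIC2 differed by 6.93 and 6.04, and the latter kept a level of 8.32 ± 0.12 in BJAB.

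Apart from those next to BCL2, 2 of the 10 highest stood beside a gene that was itself 2-fold or more higher in HBL-1. TC1100013087.hg.1 on chromosome 11 has the identifier just before BIRC2, which encodes the apoptosis inhibitor cIAP1. It measured 11.28 and 11.34 in HBL-1 with EDA, 11.65 and 12.27 with APRIL, 4.99 and 4.90 in BJAB with EDA, and 4.48 and 4.44 with APRIL. The lines did not overlap, and its difference of 6.93 stood beside 6.65 for BIRC2 itself. TC0300009457.hg.1 on chromosome 3, before SEC62 (a part of the protein translocation channel of the endoplasmic reticulum), was at 12.52 ± 0.08 and 5.82 ± 0.39 (SD, n = 4 each). Its difference was 6.71, against 0.73 for SEC62 and 2.78 for SAMD7 on its other side.

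Lowest in HBL-1 was TC1000009101.hg.1 on chromosome 10, between MIR4682 and PLPP4, a phospholipid phosphatase. Its signals were 4.25 and 3.45 in HBL-1 with EDA, 4.02 and 4.09 with APRIL, 14.18 and 13.92 in BJAB with EDA, and 13.86 and 13.79 with APRIL. The difference of the summarised signals was -9.99. The HBL-1 signals lay near the medians of the background probe sets (3.57 to 3.77 on the 8 arrays). For this and other clusters with a line near background, neither the size of the difference nor its rank is exact. PLPP4 differed in the same direction, by -2.30.

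TC1800007245.hg.1 and TC1800007244.hg.1, between the katanin-like gene KATNAL2 and MIR4527 on the forward strand of chromosome 18, differed by -7.90 and -7.02. KATNAL2 and MIR4527 also had lower signals in HBL-1, by -1.22 and -4.83. TC0900008811.hg.1 on chromosome 9, between LRSAM1 and CFAP157, differed by -6.78, and TC0600012408.hg.1 on chromosome 6, between LINC01526 and IBTK, by -6.22. TC2000009149.hg.1 (-7.79), between the chromatin remodeller CHD6 and GTSF1L on chromosome 20, stood beside a CHD6 difference of -0.99. The 4 on chromosome 2 among the 10 lowest stood beside genes that differed little or the other way. They were TC0200011768.hg.1 (-7.35), TC0200009707.hg.1 (-7.12), TC0200014655.hg.1 (-6.72) and TC0200014754.hg.1 (-6.57). The nearest genes on both sides of TC0200014655.hg.1, RPRM and the nuclear receptor NR4A2, differed by 0.20 and 0.41. Those of TC0200014754.hg.1, BAZ2B and AHCTF1P1, differed by 0.25 and -0.18. RPRM and NR4A2 lay near background, at 3.97 and 3.83 in HBL-1 and 3.77 and 3.42 in BJAB. BAZ2B, MIR4262, LINC00276 and GALNT13 were also under the level of 8 in both lines. A small difference between the lines says little at such levels. AHCTF1P1 was over 8 in both lines, and GALNT5 in HBL-1 only (8.06 against 5.03).

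The likeness to neighbours faded within a few identifiers. Across 1578 unnamed clusters whose nearest bright named cluster on the same strand was the next identifier, Pearson's r between the line differences was 0.45. It was 0.33 at 2 to 5 identifiers (n = 2671), 0.12 at 6 to 20 (n = 2212) and 0.06 beyond (n = 494). Of the 338 adjacent unnamed clusters that were 2-fold or more apart, 277 had a neighbour with the same sign (82.0%). Pairs of unnamed clusters were closer still when adjacent, with r = 0.70 in 710 pairs once pairs with identical values were left out, then 0.33, 0.06 and 0.00 at the greater distances. Pairs share the array and can share probes or transcripts, so these correlations are descriptions across clusters.

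By chromosome, the unnamed clusters differed little between the lines. The median difference on each autosome, taken relative to the median over all unnamed clusters (0.11), ran from -0.04 on chromosome 20 to 0.13 on chromosome 3. Chromosome 3 (389 clusters) gave 0.07 to 0.13 in the 4 pairs of HBL-1 and BJAB arrays with the same ligand and replicate number. Replicate numbers did not pair the arrays, so this matching is arbitrary. A median of the averaged differences can lie outside the range of the pairs, as it does here (0.133 against a highest pair of 0.126). Next came chromosomes 21 (0.09, n = 118), 22 (0.09, n = 180) and 13 (0.08, n = 150), with 0.05 to 0.18, 0.02 to 0.09 and 0.07 to 0.14 in the array pairs. The ranges of these 4 overlapped, so no order among them is given. Chromosomes 20, 15 and 5, the lowest, all had a median of -0.04, with -0.03 to -0.02, -0.05 to -0.03 and -0.07 to -0.03 in the array pairs. The lowest chromosome changed with the setting, to 12 after cyclic loess and to 15 with EDA arrays only. No order among the lowest is given either.

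The shares of large differences varied more widely than the medians. On chromosome 3, 14.9% of the unnamed clusters were 2-fold or more higher in HBL-1 and 4.88% 2-fold or more lower. On chromosome 13 there were 33 and 12 such clusters of 150, on chromosome 18 shares of 20.7% and 7.59%, and on chromosome 21 22 and 13 clusters of 118. Chromosome 22 had 15.6% higher and 6.11% lower. Over all unnamed clusters these shares were 9.67% and 8.18%. Chromosome 20 had 4.35% higher and 7.45% lower. Chromosome 9 had raised shares on both sides, 11.6% higher and 13.7% lower, and a median of -0.01.

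On chromosome 3, besides TC0300009457.hg.1, the largest positive differences were in TC0300011490.hg.1 next to the transcription factor gene FOXP1 (3.97) and TC0300010030.hg.1 (3.84). The latter lies between the ubiquitin ligase component FBXO45, at -0.93, and the kinase gene PAK2, at 1.44. On chromosome 20 the largest negative differences after TC2000009149.hg.1 were in TC2000008818.hg.1 (-3.70) and TC2000007088.hg.1 (-3.64). TC2000008818.hg.1 follows BCL2L1, the gene of the apoptosis inhibitor BCL-XL, which itself differed by -4.71, and TC2000007088.hg.1 precedes the spindle assembly factor TPX2, at -0.94.

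The named clusters showed a similar but wider spread between chromosomes, from -0.32 on chromosome 9 to 0.35 on chromosome 18. Over the 22 autosomes the relative medians of the unnamed and the named clusters had a Pearson's r of 0.59 and a Spearman's rho of 0.67, and without chromosomes 3 and 21 r was 0.41 (n = 20). These chromosomes share the arrays and the normalization, so the correlation is a description. Chromosome 3 was high in both kinds (0.13 and 0.31). Chromosome 18 was highest among named clusters and at 0.00 among unnamed ones, and chromosome 9 was lowest among named clusters and at -0.01 among unnamed ones. When only the 5640 clusters with a mean of 8 or more over all 8 arrays were kept, chromosome 3 had a relative median of 0.08, behind chromosome 22 at 0.10, and r fell to 0.35. With the mean of each chromosome in place of the median, chromosome 13 was highest (0.33) and chromosome 3 stood at 0.25.

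**Figure D2:**
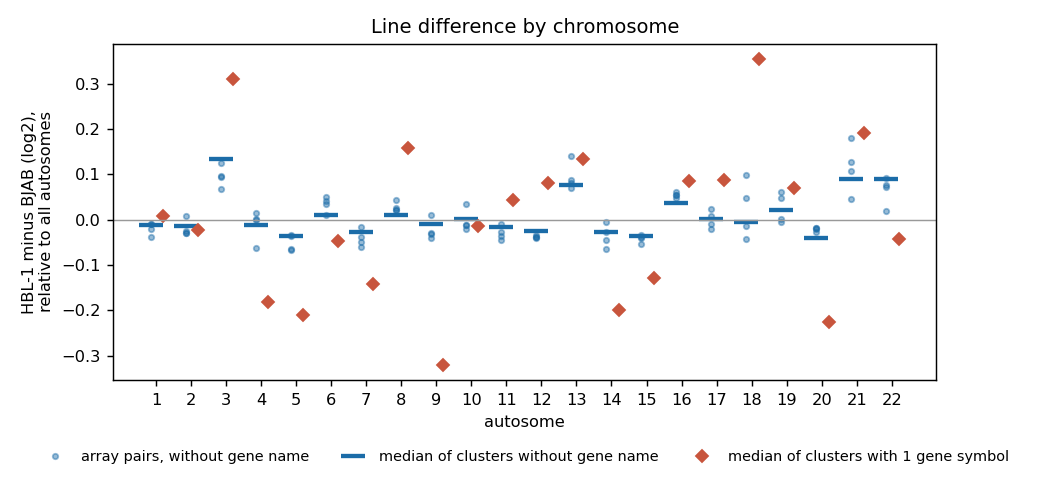
Relative median of HBL-1 minus BJAB (vertical axis, log2, relative to the median over all autosomes) for each autosome. Bars give the unnamed clusters, small circles their values in the 4 array pairs and diamonds the named clusters. Chromosome 3 is high in both kinds, at 0.13 and 0.31. Chromosomes 9 and 18 depart from 0 in the named clusters, and chromosome 22 is at 0.09 in the unnamed and -0.04 in the named ones.

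Within chromosomes, the differences were read along the order of the identifiers. The unnamed clusters of the first and second runs, taken in order of their number, were divided into 265 bins of about 25 clusters. The median over bins was 0.11 and 5% of bins lay below -0.08 and 5% above 0.36. A bin's median correlated at r = 0.41 with that of the named clusters in the same range and strand (265 bins), and at 0.38 with the unnamed clusters of the opposite strand (263 bins), again as a description.

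The highest bin was on the forward strand of chromosome 3 from LINC00578 to the ribosomal protein gene RPL35A, near the end of the long arm. Its 27 clusters had a median of 1.09, above the 0.65 to 0.99 of the 4 array pairs. Of them 14 were 2-fold or more higher in HBL-1, among them the 5 from ST6GAL1 to RTP1 described below. The 34 unnamed clusters on the opposite strand of the same range had a median of 0.30, and the named clusters stood at 0.25 on the same strand (n = 40) and 0.48 on the opposite one (n = 41). Both strands and both kinds were thus above the overall median. The value rests in part on clusters bright in 1 line: over the 18 clusters with a mean of 8 or more on all arrays it was 0.28.

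The second bin was on the reverse strand of chromosome 18 from LOXHD1 to PARD6G and holds BCL2. Its 29 clusters had a median of 0.84 (0.19 to 0.84 in the array pairs). In HBL-1 13 were 2-fold or more higher, the 9 from BCL2 to VPS4B described below among them, and none 2-fold lower. Named clusters there stood at 0.52 and the opposite strand's unnamed clusters at 0.19, and over the 18 clusters with a mean of 8 or more the median was 0.27. The third was on the reverse strand of chromosome 16 from COG7 to the pseudogene ACTR3BP3. It had 0.69 over 25 clusters, which include the 10 from NPIPB11 to MIR3680-2 described below. On its opposite strand the unnamed clusters had 0.10, and with bins of 50 clusters the value on the reverse strand was 0.20.

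The lowest bin was on the reverse strand of chromosome 17 from RPL15P21 to EPN2-AS1, with -0.48 over 25 clusters and -0.75 to -0.27 in the array pairs. None of its clusters was 2-fold higher in HBL-1 and 8 were 2-fold or more lower. The named clusters there were lower too, at -0.59, and the unnamed clusters of the opposite strand were at 0.00. The bins from SIKE1 to CTSK on chromosome 1 and from RAB10 to LINC01126 on chromosome 2 followed, at -0.22 and -0.19. With bins of 50 clusters the values of these 3 bins moved to -0.05, -0.05 and -0.02.

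**Figure D3:**
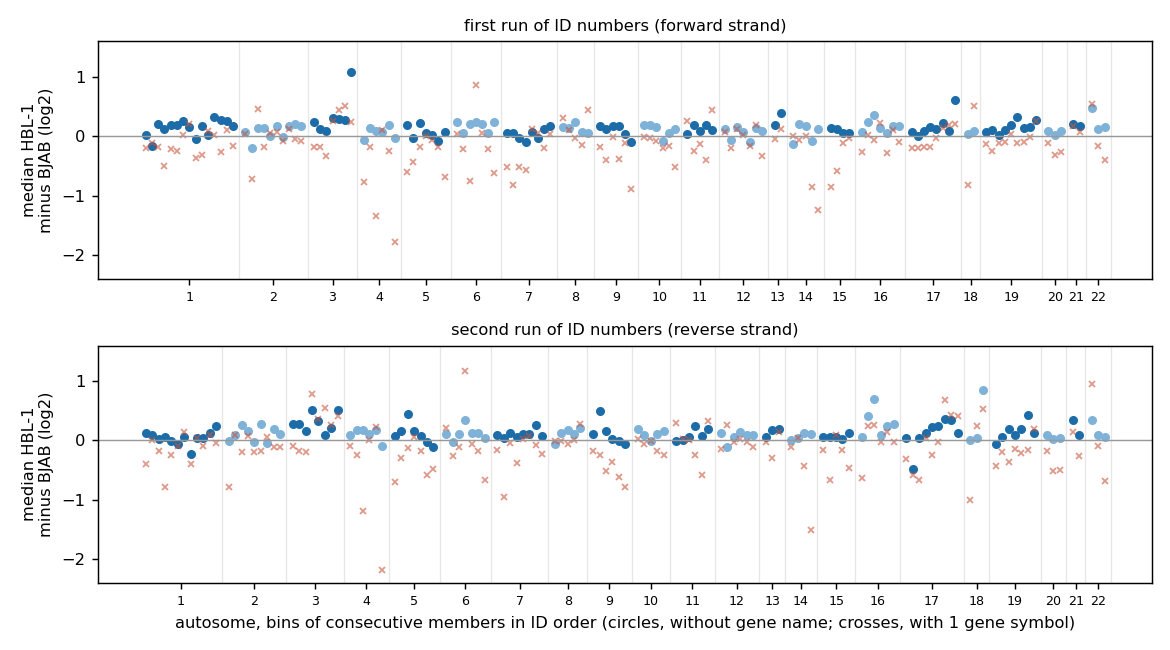
Median HBL-1 minus BJAB (vertical axis, log2) of bins of consecutive unnamed clusters along each autosome (circles) and of the named clusters in the same range and strand (crosses), on the forward strand (upper panel) and the reverse strand (lower panel). Most circles lie between -0.08 and 0.36, and single bins on chromosomes 3 and 18 reach 1.09 and 0.84.

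At the finest scale, 1566 of the clusters that passed the line contrast and had a place in the order were joined when they lay within 10 identifiers and went the same way. They gave 1243 groups, of which 1034 were single clusters. Only 25 groups held 4 or more clusters, 19 of them higher and 6 lower in HBL-1. These groups were formed from the contrast itself, so their sizes are descriptions.

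The largest group was the stretch from BCL2 to VPS4B on chromosome 18, where all 9 unnamed clusters were higher in HBL-1, by 1.05 to 7.24 with a median of 4.89. In 8 of the 9 every HBL-1 array lay at 7.31 or more and every BJAB array at 6.48 or less, and the last one, TC1800008905.hg.1, ran from 7.79 to 8.92 in HBL-1 and from 6.98 to 7.36 in BJAB. BCL2 measured 8.51 and 5.09, a difference of 3.42, while KDSR differed by 0.21.

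After FOXP1 on chromosome 3, a transcription factor gene of B-cell development, all 7 unnamed clusters up to MIR1284 were higher in HBL-1, by 0.90 to 3.97 with a median of 3.43. TC0300011487.hg.1 gave 9.26 and 9.13 in HBL-1 with EDA, 9.37 and 9.74 with APRIL, 6.11 and 5.60 in BJAB with EDA, and 5.57 and 5.90 with APRIL. The lines were well apart there, and in TC0300011501.hg.1, the last of the stretch, they overlapped (7.69 to 8.66 and 6.85 to 7.75). FOXP1 itself was at 16.25 and 11.18.

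The stretch after MYC on chromosome 8, the gene of the growth-promoting transcription factor, went the other way. All 5 unnamed clusters from MYC to MIR1208 were lower in HBL-1, by -2.93 to -1.24. TC0800008852.hg.1 measured 9.94 and 9.84 in HBL-1 with EDA, 10.62 and 10.05 with APRIL, 12.20 and 12.06 in BJAB with EDA, and 12.86 and 12.76 with APRIL. All BJAB arrays were above all HBL-1 arrays in each of the 5 clusters. MYC measured 13.53 and 15.19, a difference of -1.66.

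**Figure D4:**
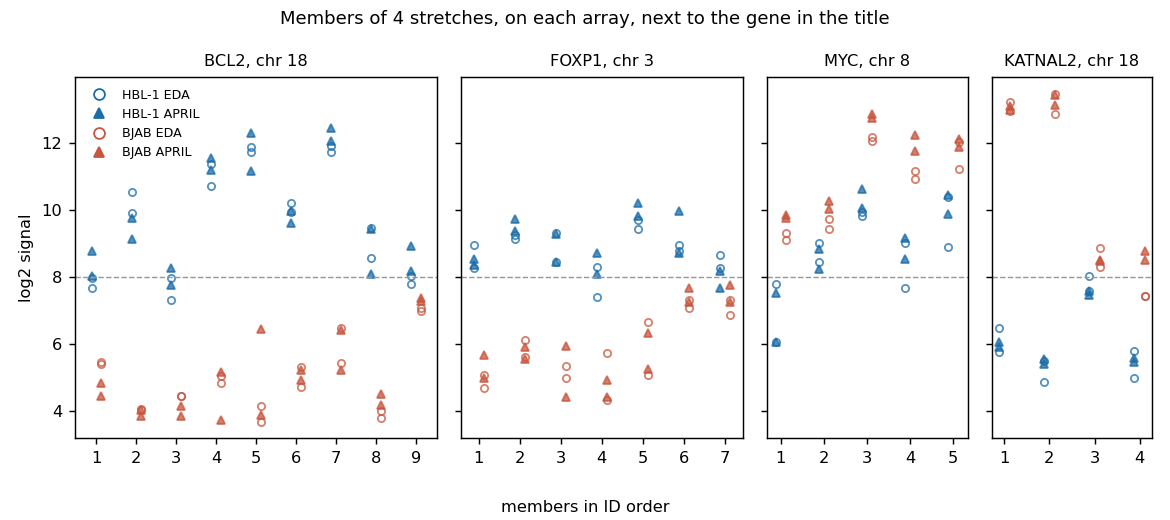
Log2 signal (vertical axis) on each of the 8 arrays of the unnamed clusters next to BCL2, FOXP1, MYC and KATNAL2, in the order of their identifiers (horizontal axis); open circles are EDA arrays, triangles APRIL arrays, blue HBL-1 and red BJAB, and the dashed line is the level of 8. Apart from an overlap in the last cluster next to FOXP1, HBL-1 lies above BJAB next to BCL2 and FOXP1 and below it next to MYC and KATNAL2.

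Other groups of 5 or 6 higher in HBL-1 lay from CUL4A to SLC9D1 (median 2.08) and from SPRYD7 to DLEU1-AS1 (3.03) on chromosome 13. The latter covers the region of the DLEU noncoding genes, which is often deleted in chronic lymphocytic leukaemia. Further groups lay from TMEM121 to LINC00226 on chromosome 14 (2.34), in the region of the immunoglobulin heavy chain genes, and from the sialyltransferase gene ST6GAL1 to RTP1 on chromosome 3 (2.71). VOPP1 to FKBP9P1 on chromosome 7 stood at 2.82, TUBD1 to SCARNA20 on chromosome 17 at 2.21, and LINC00160 to RUNX1-IT1 on chromosome 21 at 2.21. From MIR6829 to ZDHHC19 on chromosome 3, 5 of 6 clusters passed, with a median of 0.94 over those 5, and the other had -0.21. Lower in HBL-1 was the group of 6 from SNORD3B-2 to EPN2-AS1 on chromosome 17 (-1.29), inside the lowest bin. In this group TC1700009999.hg.1 and TC1700010009.hg.1 had identical values on all arrays. So did TC1400008497.hg.1 and TC1400008502.hg.1 in the group on chromosome 14. From NPIPB11 to MIR3680-2 on chromosome 16, 7 of 10 unnamed clusters passed, with a median of 1.19 over those 7, and the other 3 had positive differences of 0.69, 0.44 and 0.14.

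Genes at which gains and losses are described in large B-cell lymphoma served as further signposts, with the 12 nearest unnamed clusters on each side of the gene on its strand. The 24 clusters around BCL2 had a median of 0.86 with 11 of them 2-fold or more higher in HBL-1 and none lower. Among these 11 are the 9 from BCL2 to VPS4B described above. The 24 around FOXP1 had 0.54 with 10 higher and none lower, and they include the 7 from FOXP1 to MIR1284. These values are thus not separate from those of the 2 stretches. Around BCL6, the germinal-centre repressor gene that was itself lower in HBL-1 (11.81 against 16.28), the clusters had a median of 0.43, with 3 higher and 1 lower. Around MALT1, on the other strand of chromosome 18, the median was 0.12, with 3 higher and 4 lower.

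Around MYC the median was 0.05, although 7 of the 24 were 2-fold or more lower, the 5 above among them. Around genes described as lost, the medians were 0.16 at PRDM1, 0.11 at TNFAIP3, 0.21 at RB1 and 0.13 at B2M, near the overall 0.11. They were -0.05 at CD58 and -0.11 at FAS, with 5 of 24 clusters 2-fold or more lower at each and 2 and 1 higher. The counts were 5 higher and none lower at TNFAIP3, 4 and 2 at RB1, and none and 1 at both PRDM1 and B2M. The genes CD58, a ligand of T and NK cells, and FAS, a death receptor, differed by -7.28 and -2.28. Around CDK4 the median was 0.17, and the 17 clusters around CCND2 had 0.34, next to a CCND2 difference of 11.09. REL, NFKBIZ, SPIB, BIRC2, CDKN2A, CDKN2B and TNFRSF14 had 7 or fewer unnamed clusters in their run.

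APRIL against EDA gave no call among the unnamed clusters. In limma, 0 of the 7055 and 0 of all 135750 rows (0.0%) passed an adjusted p of 0.05, whether within HBL-1, within BJAB, as the mean of both lines or for the difference of the responses. At an unadjusted p of 0.05, 532 unnamed clusters passed in HBL-1 (7.54%, against 7.1% of all rows) and 342 in BJAB (4.85%, against 4.26%). For the mean of both lines 525 passed (7.44%, against 6.03%), and for the difference of the responses 320 (4.54%, against 5.18%). These shares were near those of all rows. A response within a line had a 95% confidence interval of ± 0.58 for the median unnamed cluster. With 200 changes of known size among 135750 simulated rows, 0% of 2-fold and 46% of 4-fold changes were recovered in HBL-1 and 0% and 57% in BJAB.

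The clusters with the smallest p in HBL-1 are given as the values behind those counts. TC0400011088.hg.1, between the cyclin gene CCNI and CNOT6L on chromosome 4, had 5.68 and 5.34 in HBL-1 with EDA and 7.31 and 7.37 with APRIL, and 8.11 and 8.33 in BJAB with EDA and 7.85 and 8.09 with APRIL. Both APRIL arrays were above both EDA arrays in HBL-1, and below them in BJAB. The difference was 1.83 in HBL-1, with an adjusted p of 0.538 in limma.

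TC1200006556.hg.1 on chromosome 12 has the identifier just after CCND2, the cyclin D2 gene that is bright in HBL-1. It had 7.70 and 7.38 in HBL-1 with EDA and 9.09 and 8.77 with APRIL, and 6.37 and 6.13 in BJAB with EDA and 5.93 and 5.89 with APRIL. The difference in HBL-1 was 1.39, with an adjusted p of 0.603 in limma. TC0600011556.hg.1, TC1900007224.hg.1 and TC0900012034.hg.1 had differences of 1.71, 1.46 and 1.55 in HBL-1, at the same adjusted p. In the negative direction, TC0200009707.hg.1, TC0800011663.hg.1 and TC0900011364.hg.1 had -1.21, -1.40 and -1.53, and TC2200006446.hg.1 and TC2200006447.hg.1, whose values are identical, had -1.09.

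In BJAB the smallest p belonged to TC1200008109.hg.1, between RAP1B, the gene of a small GTPase, and the nuclear pore gene NUP107. It measured 6.55 and 6.35 in BJAB with EDA and 8.34 and 8.42 with APRIL, against 7.88 and 7.60 and then 7.95 and 8.60 in HBL-1. The difference was 1.93 in BJAB and 0.53 in HBL-1. TC1900007970.hg.1, TC0100015927.hg.1, TC0500010198.hg.1 and TC1700007382.hg.1 followed in BJAB with 1.53, 1.99, 1.28 and 1.41. The negative differences with the smallest p were -1.84 in TC0200010792.hg.1, -1.77 in TC0500008158.hg.1, -1.14 in TC1500008526.hg.1, -1.36 in TC2200006438.hg.1 and -1.24 in TC0100014911.hg.1. All had an adjusted p of 1 in limma.

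None of the clusters with the smallest p on average over both lines passed, and only some had like values in each line. TC1500009610.hg.1, between MIR2116 and the transcription factor subunit gene GTF2A2 on chromosome 15, had 5.60 and 5.69 in HBL-1 with EDA and 7.50 and 7.08 with APRIL, and 8.22 and 7.87 in BJAB with EDA and 9.96 and 9.06 with APRIL. The APRIL arrays were higher in both lines, by 1.64 and 1.47. TC0900009988.hg.1 gave 1.33 and 1.24 and TC1500010673.hg.1 0.89 and 0.87. Averaged over both lines, each had an adjusted p of 0.785 in limma. In the negative direction TC0200015998.hg.1 gave -0.94 and -0.86, TC1400007096.hg.1 -0.86 and -1.01, and TC0400009268.hg.1 -0.51 and -0.83, at the same adjusted p. The rest were less alike in HBL-1 and BJAB. TC1900007970.hg.1 gave 0.73 and 1.53, and TC1200008109.hg.1 0.53 and 1.93. TC0200010792.hg.1 gave -0.43 and -1.84, and TC0200009707.hg.1 -1.21 and -0.18.

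A shift over the named clusters on 1 array was not seen over the unnamed ones. Against the EDA mean of HBL-1, the second APRIL array of HBL-1 had a median of 0.31 over the named clusters and of -0.06 over the unnamed ones, while the first APRIL array had 0.07 in both. In BJAB the APRIL arrays had 0.08 and 0.02 over the unnamed clusters and 0.07 and 0.01 over the named ones. The median over the background probe sets of the second APRIL array of HBL-1 was 3.77, and 3.57 to 3.65 on the other arrays. The part of background signal in this shift was not tested. The median response of the unnamed clusters was 0.01 in HBL-1 and 0.05 in BJAB. Without that array, the HBL-1 median was 0.07.

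**Figure D5:**
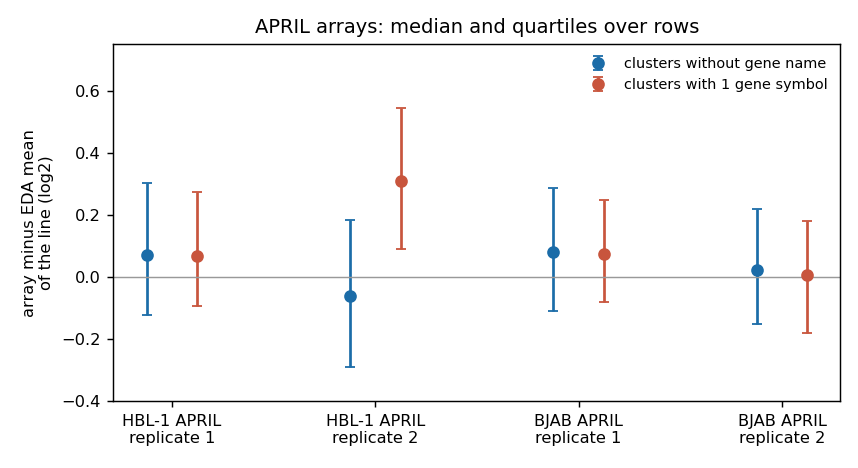
Difference of each APRIL array from the EDA mean of its line (vertical axis, log2), as the median and quartiles over unnamed and named clusters. On the second APRIL array of HBL-1 the medians are -0.06 without and 0.31 with a gene name.

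By chromosome the response to APRIL is given as medians, with no test. The relative medians of the unnamed clusters ran from -0.03 to 0.06 in HBL-1, with chromosome 13 highest, and from -0.08 to 0.04 in BJAB, with chromosome 21 lowest. Chromosome 3 stood at 0.03 and 0.02.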

How the data were processed

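Log2 signals were analysed as deposited. Per the submitters' processing notes, the authors made these log2 values with RMA, which corrects background, equalises distributions by quantiles and summarises probes, using Affymetrix Expression Console; versions, annotation release and genome build are not given in the sources used here. The 138745 rows include 2995 controls, which were left out. Gene symbols came from the platform annotation, and the reference gene table (GRCh38.p14) was used only for the order and strand of named clusters. The members and lists were chosen with earlier results of these data known.

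All 135750 rows were fitted with 1 mean per group in limma 3.58.1 (R 4.3.3; lmFit, eBayes; 4 residual and 5.285 prior degrees of freedom), with two-sided p-values adjusted by Benjamini-Hochberg over all rows. Medians, bins and correlations were computed in Python 3.11.15. Precision is limited by 2 arrays a group. The fit was tested on simulated data: for the lines, 93% of 200 4-fold and 0% of 200 2-fold changes were recovered among 135750 rows. In the data 11854 rows (8.73%) passed the line contrast, far more than 200. Adjustment over all rows is less strict with more changed rows, so these shares do not describe the line contrast of the data. Replicate numbers did not pair the arrays (correlation of replicate deviations 0.03 or less over all rows).

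Clusters named are the 10 largest line differences each way among those that passed without overlap of the lines, the 5 smallest p each way per ligand contrast, the 5 brightest, 3 per extreme chromosome, 3 on each side of the level, and the members of bins and groups described. Alternatives were other normalizations, a filter on dim rows, another spread model, array weights, a replicate block, other level rules, 1 ligand only, another bin size, each array left out and, chosen after seeing the data, at most 1 cluster per 10 identifiers.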

Additional observations from a re-analysis of the deposited data

Results flagged for a closer look

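Of the 33 unnamed clusters named for a ligand contrast, 14 had opposite signs in the lines on every array: the 2 APRIL arrays were above the 2 EDA arrays in one line and below them in the other. The difference of the responses (HBL-1 minus BJAB, log2) was tested in limma over all rows, and the adjusted p was 0.961 in all 14, so none passed. Positive values were 2.08 in TC0400011088.hg.1, 1.73 in TC1200006556.hg.1 next to CCND2, 1.69 in TC1500008526.hg.1, 2.10 in TC0100006939.hg.1 (between PRDM2 and KAZN), 1.69 in TC0200015386.hg.1 and 1.56 in TC1100012512.hg.1. Negative values were -1.97 in TC0900011364.hg.1, -1.42 in both TC2200006446.hg.1 and TC2200006447.hg.1, -1.57 in TC0500010198.hg.1, -2.10 in TC0900009771.hg.1, -1.84 in TC1600009348.hg.1, -1.62 in TC2000007459.hg.1 and -2.04 in TC0200016051.hg.1. These clusters were chosen for small p-values in the same contrasts. Many were listed for the difference of the responses itself, a choice that favours opposite signs. The share of all rows with opposite signs was not counted, so nothing is read from the 14.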

How the results depend on the processing

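The 0 calls for APRIL in limma held under every alternative run. The 1611 clusters that passed for the lines (887 higher and 724 lower) became 831 (451 and 380) with EDA arrays only and 884 (476 and 408) with APRIL arrays only, where fewer arrays enter. The set itself changes with the level rule: 2488 of 12326 clusters passed (1416 higher) at a level of 7 or more. At 9 or more 964 of 4384 passed (516 and 448). At a mean of 8 or more over all arrays 944 of 5640 passed (504 and 440), against 1611 of 7055 (22.8%) in the main run. Leaving out each array gave 1290 to 1456 (693 to 788 and 585 to 670). With a replicate block the count was 1552 (853 and 699) and for APRIL 0. The share of all rows that passed for the lines was 8.73% in the main run. It is not given for the alternatives, so nothing is read from these line counts. The replicate numbers share only a number, since replicate deviations did not correlate between groups.

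The correlation of unnamed with named medians over the chromosomes (0.59) was 0.77 at a level of 7, 0.32 at 9, 0.35 at a mean of 8 and 0.75 with means, and 0.58 to 0.72 with each array left out. Chromosome 3 (0.133) was at 0.0796 at 9, 0.0824 at a mean of 8, 0.251 with means, 0.105 with EDA only, 0.0983 with at most 1 cluster per 10 identifiers, and 0.0962 to 0.137 with each array left out, the lowest without the first EDA array of HBL-1. Chromosome 20 (-0.0397) was at -0.0558 at 7, -0.0259 at 9, -0.0270 at a mean of 8, -0.160 with means, -0.0504 with EDA only, -0.0464 with APRIL only, -0.0255 with at most 1 cluster per 10 identifiers, and -0.0447 to -0.0269 with each array left out. The median response in BJAB (0.0546) was 0.0082 after quantile normalization, 0.0167 after cyclic loess, 0.0478 at 7, 0.0486 at a mean of 8, 0.0672 as a mean and 0.0158 to 0.0838 with each array left out. Beyond the arrays or clusters that an alternative leaves out, the cause was not tested. Signal over background limits the dimmer clusters, and 2 arrays a group limit every response.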
